A study of Mus musculus with 6 samples.

Results

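Genes of the GABA cycle were followed in single cerebellar nuclei of mice with spinocerebellar ataxia type 1 (SCA1) and of wild-type (WT) mice. They were the 5 genes *Gad1*, *Gad2*, *Slc32a1*, *Slc6a11* and *Abat* out of 32286 genes in the count tables and were chosen by function, not by a threshold on their values. The SCA1 mice were *Pcp2-ATXN1[82Q]* animals, in which the *Pcp2* promoter drives human *ATXN1* with an expanded CAG repeat in Purkinje cells (PCs), and the repeat carried by the colony was shorter than the name of the line states. The controls were sex-matched WT littermates without the transgene, all on a C57BL/6 background, and the labels list no treatment for either group. Nuclei came from the whole cerebellum at 12 weeks, with 1 library from each of 3 SCA1 and 3 WT mice, so the replicates are separate animals.

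GABA is the main inhibitory transmitter of the cerebellar cortex, where PCs, the output neurons of the cortex, and the local interneurons all release it. It is made from glutamate by 2 glutamate decarboxylases, GAD67 encoded by *Gad1* and GAD65 encoded by *Gad2*, and it is loaded into synaptic vesicles by the vesicular transporter VGAT encoded by *Slc32a1*. After release it is cleared from the extracellular space by transporters that include GAT-3, an astrocyte transporter encoded by *Slc6a11*, and it is broken down in mitochondria by GABA transaminase, encoded by *Abat*.

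In the GENCODE annotation of GRCm38 (mm10), all 5 genes lie on the plus strand. *Gad1* (ENSMUSG00000070880) spans chr2:70553072-70602014, *Gad2* (ENSMUSG00000026787) chr2:22622205-22693874 and *Slc32a1* (ENSMUSG00000037771) chr2:158610767-158615748, so the genes of synthesis and vesicle loading share a chromosome without being neighbours. *Slc6a11* (ENSMUSG00000030307) spans chr6:114131241-114249952 and *Abat* (ENSMUSG00000057880) chr16:8513429-8621568. *Slc32a1* is 5.0 kb long with 2 exons and 1 annotated transcript, whereas the other members span 48.9 to 118.7 kb with up to 14 to 17 exons. Reads from introns were counted too, so length enters the counts and levels are compared here between cell types and mice, not between genes. An antisense gene, *Gad1os* (chr2:70489940-70563357, minus strand), overlaps the 5′ end of *Gad1*.

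The upstream sequences of 4 members are shown because *Gad1* and *Slc32a1* turned out to share their pattern over cell types, which is described further on. They are RefSeq promoter sequences on GRCm38.p6, plus strand. Each window ends at the base before the earliest RefSeq or GENCODE transcript start at or after its first base. For *Slc32a1* and *Slc6a11* this was the RefSeq start. For *Gad1* and *Gad2* it was a GENCODE start (70562042 and 22622205) upstream of the RefSeq start (70562129 and 22622327). *Abat* had no entry in the table used. Capitals mark each E-box, CANNTG on either strand, the letters that basic helix-loop-helix factors bind.
Gad1, chr2:70561879-70562041: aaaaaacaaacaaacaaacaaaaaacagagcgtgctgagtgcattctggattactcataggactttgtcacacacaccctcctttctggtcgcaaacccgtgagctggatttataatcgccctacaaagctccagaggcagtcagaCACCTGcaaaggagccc
Gad2, chr2:22622077-22622204: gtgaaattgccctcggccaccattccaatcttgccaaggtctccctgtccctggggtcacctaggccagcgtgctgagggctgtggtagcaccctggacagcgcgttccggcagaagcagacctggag
Slc32a1, chr2:158610508-158610757: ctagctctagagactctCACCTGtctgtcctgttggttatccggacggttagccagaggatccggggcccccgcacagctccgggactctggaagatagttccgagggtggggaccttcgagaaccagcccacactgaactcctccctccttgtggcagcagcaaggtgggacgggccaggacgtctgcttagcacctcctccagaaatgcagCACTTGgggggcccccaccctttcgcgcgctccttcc
Slc6a11, chr6:114130991-114131240: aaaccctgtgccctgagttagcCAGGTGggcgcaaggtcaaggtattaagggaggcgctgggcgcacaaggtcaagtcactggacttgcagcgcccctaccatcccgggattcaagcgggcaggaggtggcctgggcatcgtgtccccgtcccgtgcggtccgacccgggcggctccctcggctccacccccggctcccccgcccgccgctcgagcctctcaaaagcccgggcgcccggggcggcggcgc
The *Slc32a1* window held 2 E-boxes, those of *Gad1* and *Slc6a11* 1 each and that of *Gad2* 0. Of 32851 RefSeq promoters cut to the same length, 66.2% held at least 1 E-box at 250 bases and 31.8% at least 2, 52.1% held 1 or more at the 163 bases of the *Gad1* window and 43.9% at the 128 bases of the *Gad2* window, so such matches are common. The *Gad1* window lies inside the annotated gene, since other *Gad1* transcripts start upstream of it, and exons of the minus-strand gene *Gm14204* overlap the *Slc32a1* window.

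The 6 libraries held 45473 nuclei, 3354 to 10897 per mouse, with 18916647 to 98366627 transcript molecules counted by unique molecular identifiers (UMIs) and a median of 2246.5 to 7253 UMIs per nucleus. The first mouse of each genotype formed one batch and the other 4 mice the other, and the least covered nucleus had 3890 and 3932 UMIs in the former against 1000 to 1739 in the latter. No pair of libraries shared more than 44 barcodes. The human transgene gave 12, 15 and 19 UMIs in PC nuclei of SCA1 mice 1, 2 and 3 and 0 in PC nuclei of all 3 WT mice, although whole libraries held 57 to 60 UMIs in SCA1 and 15 to 37 in WT mice. Of the 24 labels that the authors' reference-based annotation gave to nuclei, 13 had at least 10 nuclei in every mouse and entered the analysis, with 45042 nuclei. All levels are UMIs of a gene per 1000000 UMIs of that label and mouse.

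Of these labels, 6 carry *Gad1* and *Gad2* in their reference name and are called the Gad labels here. One is the PC label (292 nuclei, 146 per genotype), which held *Car8* at a mean of 2495 and *Pcp2* at 612 UMIs per 1000000. The others are interneuron labels, called by the last term of their name. The Nefh label (1224 nuclei) and the Rab3b label (458) held *Sorcs3* at 2036 and 1723, the Cadm1 label (289) and the Chrm2 label (263) held *Nxph1* at 4605 and 2604, and the Lgi2 label (240) held *Lgi2* at 455 and *Slc6a5*, the glycine transporter of Golgi cells, at 119. The Chrm2 label also held *Slc6a5*, at 20.1 to 78.3 over mice, whereas Cadm1 had 0 to 2.85. The remaining 7 labels were granule neurons (37532 nuclei, *Gabra6* at 737), oligodendrocytes (OLs, 1384, *Mog* at 730), Bergmann glia (BG, 1243, *Gdf10* at 122), velate astrocytes (VA, 1014, *Aqp4* at 1151), the *Slc17a6* labels Nrgn (757) and Sln (104), and a label named endothelial tip with *Dcn* and *Nnat* (242). The endothelial name was not borne out, because *Cldn5* and *Pecam1* were near 0 while *Dcn* stood at 374 and *Slc6a13* at 410, so it is called the Dcn label. As the annotation was made from these same expression values, levels across labels are a description with no test.

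*Gad1* was highest in interneurons of the Rab3b and Nefh labels and was higher in all 6 Gad labels than in the other labels. The mean was 392 ± 80.0 UMIs per 1000000 (SD, n = 6 mice) in the Rab3b label and 323 ± 51.7 in the Nefh label, then 210 ± 32.9 in Cadm1, 205 ± 44.4 in Lgi2, 195 ± 14.8 in PCs and 181 ± 40.8 in Chrm2. The Nefh mice did not overlap the Cadm1 mice, whereas Cadm1, Lgi2, PCs and Chrm2 were neighbours whose ranges overlapped. With the level of granule neurons of the same mouse subtracted, Nefh (156 to 359) and Cadm1 (90.8 to 201) overlapped as well. This subtraction, here and below, may take off too much in deeper labels, as given further on. Rab3b exceeded Nefh in 6 of 6 mice, by 69.0 ± 55.7, although the ranges of the 2 labels overlapped. No Rab3b nucleus of any mouse lay in a cluster whose most frequent label was Rab3b. Chrm2 nuclei lay in a cluster of their own label in SCA1 mouse 1 only (38 nuclei). With clusters named in this way, the study's rule that cluster and annotation match would keep no nucleus as Rab3b. The 7 other labels had means of 36.6 to 59.0. The mean of PCs stood 3.30-fold and that of the Rab3b label 6.65-fold above the mean of granule neurons, which differed widely between mice as given further on.

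*Gad2* had a different order, with PCs last among the Gad labels. Chrm2 (247 ± 73.5), Cadm1 (245 ± 31.1), Rab3b (231 ± 38.9), Lgi2 (215 ± 41.1) and Nefh (195 ± 14.7) formed a run of overlapping ranges, and the level of PCs was 119 ± 27.9 UMIs per 1000000, below the Nefh label without overlap. The Nrgn label followed at 50.5 ± 8.33, again without overlap with PCs, and the 6 remaining labels had means of 14.6 to 28.3. With the level of granule neurons of the same mouse subtracted, PCs (56.3 to 144) and Nefh (126 to 204) overlapped, while Nrgn (-17.6 to 44.6) stayed below PCs. For *Gad2*, PCs stood 4.22-fold above granule neurons.

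*Slc32a1* followed the same 6 labels. Its means were 145 ± 69.7 in Cadm1, 141 ± 49.3 in Nefh, 137 ± 52.6 in Rab3b, 106 ± 44.2 in Lgi2, 91.8 ± 38.3 in PCs and 83.7 ± 36.5 in Chrm2, and the ranges of all neighbours in this order overlapped. The other 7 labels had means of 15.7 to 23.3, and PCs stood 3.95-fold above granule neurons. In 6 of 6 mice, the lowest Gad label was above the highest other label for each of *Gad1*, *Gad2* and *Slc32a1*.

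*Slc6a11* was highest in astrocytes. VA held 291, 235 and 320 UMIs per 1000000 in SCA1 against 290, 275 and 280 in WT mice, a mean of 282 ± 27.7. This was 30.0-fold above the granule mean and 13.98 to 91.95-fold above granule neurons within single mice, because *Slc6a11* in granule neurons ran from 3.02 to 20.7. BG came next at 54.3 ± 34.1 without overlapping VA, and the Nrgn label followed at 15.8 (11.8 to 17.9). The break between BG and Nrgn rested on BG nuclei that clustered with other cells, since the BG nuclei whose label and cluster agreed, described further on, stood at 17.01 to 36.5 for *Slc6a11* and overlapped Nrgn. PCs had the lowest mean, 3.33 ± 3.15, with 0 UMIs in WT mice 2 and 3.

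*Abat* was the only member that spread over neurons and astrocytes alike. It was highest in VA at 240 ± 37.7, followed by the interneuron labels Cadm1 (157 ± 33.6), Lgi2 (155 ± 37.9), Nefh (150 ± 12.8), Chrm2 (147 ± 29.9) and Rab3b (139 ± 22.9), then BG (122 ± 12.8) and PCs (111 ± 18.4). Neighbours in this run overlapped, and the only neighbours in the order without overlap were PCs and the Nrgn label at 80.6 ± 5.31. The Sln and Dcn labels, lower in the order, reached 106 and 108 and overlapped PCs, whose lowest mouse stood at 89.2. With the level of granule neurons of the same mouse subtracted, PCs (47.3 to 80.4) and Nrgn (3.58 to 52.6) overlapped too. OLs (48.1 ± 20.0) and granule neurons (47.7 ± 20.3) were lowest, a 5.03-fold distance from VA for *Abat*.

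**Figure D1:**
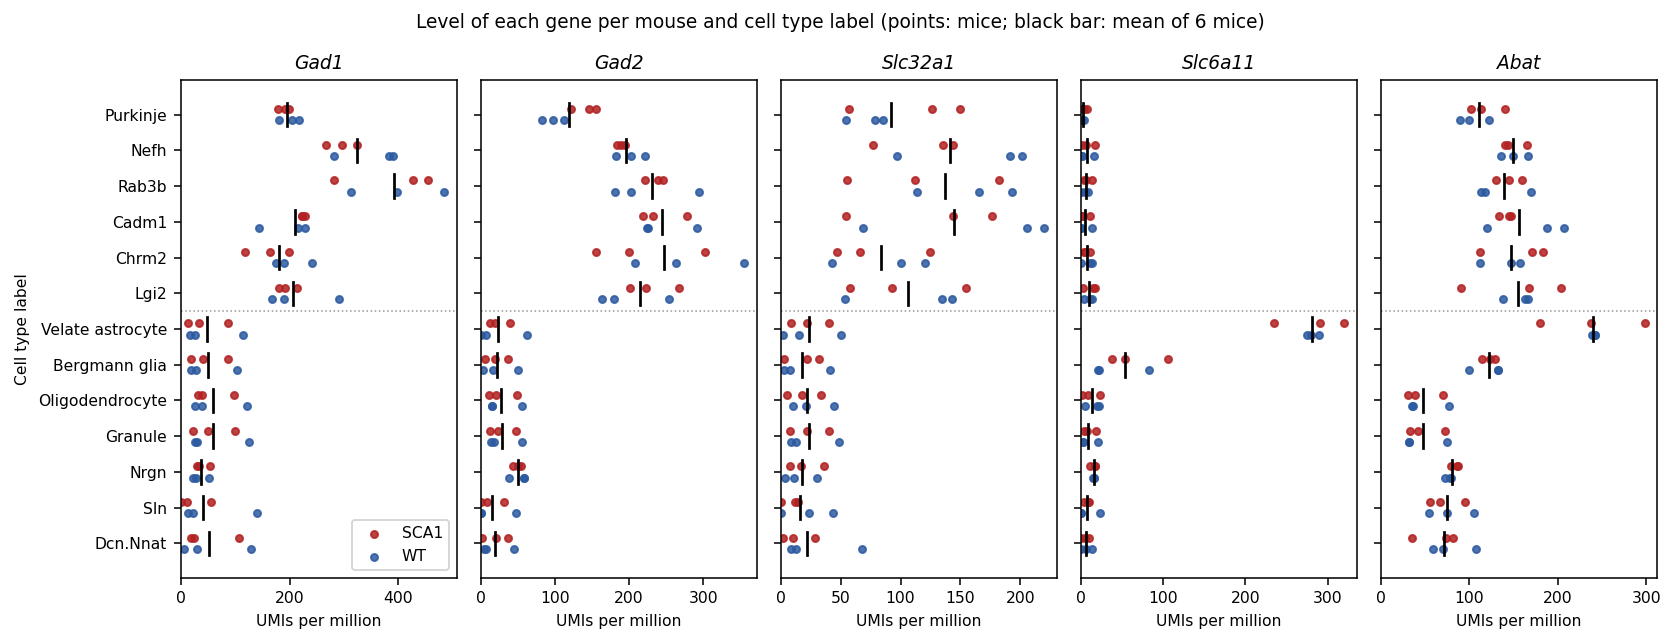
Levels of the 5 genes in 13 cell type labels. The x axis of each panel gives UMIs per 1000000, points are mice (red SCA1, blue WT), black bars are means of 6 mice and the dotted line separates the 6 Gad labels from the other 7. *Gad1*, *Gad2* and *Slc32a1* are higher in the 6 Gad labels, *Slc6a11* in VA (mean 282), and *Abat* spreads from 47.7 in granule neurons to 240 in VA.

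Low counts of these genes also appeared in cells that are not GABA neurons. To compare labels of different depth (a median of 36466.5 UMIs per nucleus in PCs and 5923 in granule neurons), each nucleus was thinned to 1000 UMIs. The share of nuclei with a *Gad1* UMI was then 17.6% in PCs, 27.9% in Nefh, 31.6% in Rab3b, 6.26% in granule neurons and 6.07% in OLs, against 88.2% in PCs and 28.3% in granule neurons without thinning. The thinned shares of *Gad2* were 11.3% in PCs, 21.7% in Cadm1 and 2.98% in granule neurons, and those of *Slc32a1* 7.99% in PCs, 13.5% in Cadm1 and 2.55% in granule neurons. *Slc6a11* was found in 19.7% of thinned VA nuclei, 4.46% of BG and 0.997% of granule neurons, and *Abat* in 20.9% of VA, 10.7% of PCs and 4.71% of granule neurons. Granule neurons and OLs, at like shares of *Gad1*, serve here as the background of the measurement. Whether free RNA, doublets or low expression gave these counts was not tested.

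This background was not the same in all libraries. In granule neurons *Gad1* stood at 99.4, 49.7 and 22.8 UMIs per 1000000 for SCA1 (mice 1, 2 and 3) against 125, 30.1 and 26.7 for WT, and *Gad2* at 47.4, 23.0 and 11.9 against 55.7, 17.3 and 14.2. The mice of the first batch were highest for each gene in both genotypes. With the granule level of the same mouse subtracted, *Gad1* in PCs was still 136 ± 51.8 and above 0 in 6 of 6 mice. The granule level need not equal the background of a deeper label. In Nrgn (median of 20677 UMIs per nucleus) subtraction gave *Gad1* at -72.8 in WT mouse 1 and -46.1 in SCA1 mouse 1. Only 2 of 6 Nrgn mice were above 0. Subtracted levels may thus be too low, most of all in the first batch, and an overlap after subtraction does not show that levels are alike.

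Because granule neurons were so many, they held 46.3% of all *Gad1* UMIs, 38.1% of *Gad2* and 44.3% of *Slc32a1* (means over mice), while the Nefh label held 17.8%, 17.1% and 18.2% and PCs 9.22%, 8.44% and 9.87%. VA held 43.5% of *Slc6a11*, granule neurons 34.7% and BG 9.60%. For *Abat*, granule neurons held 49.1%.

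The genes for making and packing GABA were detected together in most PC nuclei. All of *Gad1*, *Gad2* and *Slc32a1* were detected in 188 of 292 PC nuclei (64.4%), against 68.3% of Lgi2 nuclei, 54.6% of Nefh nuclei and 2.60% of granule nuclei, and these shares were not corrected for depth. Both decarboxylases were found in 223 PC nuclei (76.4%), *Gad1* alone in 38, *Gad2* alone in 12 and neither in 19 (6.51%).

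The balance of the decarboxylases split the Gad labels into 2 sets. The ratio of *Gad1* to *Gad2* UMIs averaged 1.75 in Rab3b, 1.72 in PCs and 1.65 in Nefh, and 0.963 in Lgi2, 0.866 in Cadm1 and 0.755 in Chrm2. Each of the first 3 labels was above each of the last 3 in 6 of 6 mice, and the lowest value of the former was 1.18 against a highest value of 1.14 in the latter. Intron reads of 2 genes of unlike length enter this ratio, so it is compared only between labels and mice. In granule neurons, where both genes were low, it was 2.01 ± 0.195.

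Within PCs the ratio was 1.36, 1.46 and 1.22 for SCA1 against 1.61, 2.45 and 2.24 for WT. All SCA1 values lay below all WT values, with means of 1.35 ± 0.119 and 2.10 ± 0.438 (SD, n = 3 each) and a difference of -0.62 on the log2 scale. This comparison was chosen after the levels were seen. The share of gene pairs whose ratio separates the genotypes in this way was not computed. *Gad2* alone did not overlap in PCs, as 14.6% of the genes tested there did not, so the ratio is not separate from the *Gad2* levels given below. Any comparison without overlap gives the smallest p of the test that follows. An exact two-sided permutation test gave p = 0.1, the smallest that 3 against 3 mice allow, and 0.3 after Benjamini-Hochberg adjustment over the 6 Gad labels. The Lgi2 label did not overlap either, at 0.797, 0.900 and 0.859 in SCA1 and 1.06, 1.02 and 1.14 in WT mice (exact permutation p = 0.1), and the other 4 labels overlapped. With the granule level of each mouse subtracted, the Lgi2 ratios overlapped too, at 0.517, 0.737 and 0.800 in SCA1 and 0.519, 0.937 and 1.10 in WT mice. The PC ratios were 1.01, 1.30 and 1.17 in SCA1 and 0.973, 2.64 and 2.30 in WT mice, after the same subtraction, which overlap because WT mouse 1 fell below all others. That mouse had the highest granule level of both genes, and the subtraction may be too large in PCs, so this overlap does not settle the comparison.

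**Figure D2:**
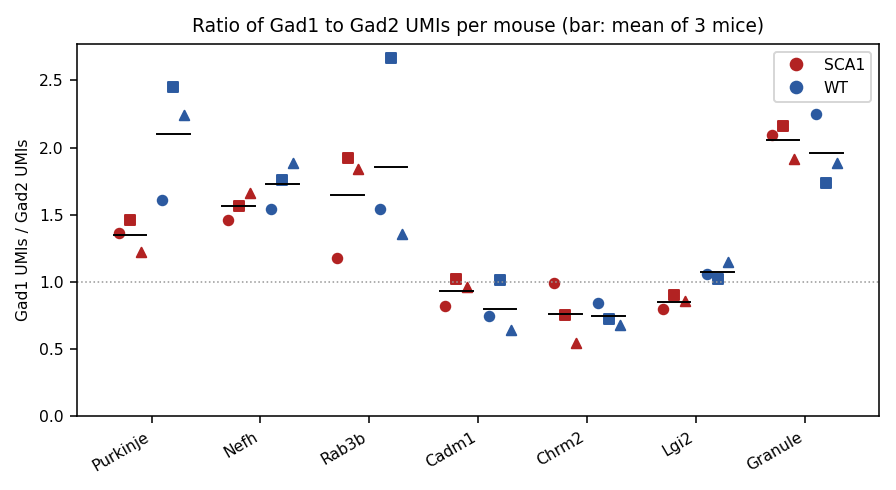
Ratio of *Gad1* to *Gad2* UMIs (y axis) per mouse in the 6 Gad labels and in granule neurons. Symbols mark mouse 1, 2 and 3 of each genotype (circle, square, triangle), red is SCA1 and blue WT, bars are means of 3 mice and the dotted line marks a ratio of 1. Rab3b, PCs and Nefh lie above Lgi2, Cadm1 and Chrm2, and in PCs the SCA1 mice (1.22 to 1.46) lie below the WT mice (1.61 to 2.45). The share of gene pairs that separate the genotypes so was not computed.

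The genes whose levels followed each member most closely over the 13 labels were ranked among 13702 genes by Pearson's r of log2 levels, as a description over labels that share libraries. For *Gad1* the first was *Slc32a1* (r = 0.98), followed by *Gm32243* (0.95) and *Tfap2a* (0.94), a transcription factor gene of cerebellar GABA neurons, while *Gad2* came sixth (rank 6, 0.92). *Gm32243* (0.99) was also first for *Slc32a1*. For *Gad2* the first was *Gad1os* (0.98), the antisense neighbour of *Gad1*, followed by *Rassf6* (0.96) and *Gm14204* (0.96), the minus-strand neighbour of *Slc32a1*. Whether counting used the strand was not given in the sources used here, so reads of these antisense genes and of their partners may not be separated. *Slc6a11* was followed by *C530044C16Rik* (0.96), and *Abat* by *Ppargc1a* (0.93), a coactivator of mitochondrial genes, and *Abat* and *Gad1* had an r of 0.50.

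*Slc32a1* levels varied between mice far more than those of the decarboxylases did, before any subtraction. Its coefficient of variation over 6 mice was 34.9 to 48.2% in the Gad labels (median 41.7%), against medians of 18.2% for *Gad1*, 18.0% for *Gad2* and 18.5% for *Abat*. With the granule level of each mouse subtracted, the contrast with *Gad1* was not kept in every label. *Gad1* and *Slc32a1* were then 264 ± 89.3 and 118 ± 42.4 in Nefh, 151 ± 45.8 and 121 ± 60.2 in Cadm1, and 122 ± 61.9 and 60.4 ± 23.9 in Chrm2. In the Nefh label *Slc32a1* stood at 144, 136 and 77.3 UMIs per 1000000 for SCA1 (mice 1, 2 and 3) against 191, 201 and 97.3 for WT, and in Cadm1 at 176, 144 and 54.4 against 205, 220 and 68.3. The mouse numbered 3 was lowest in both genotypes. These mice were the lowest pair in 5 of 6 Gad labels, Rab3b being the exception, and their mean was 0.329 to 0.520 of that of the other 4 mice. After subtraction of the granule level PCs were a further exception, with WT mouse 1 (29.6) below the mice numbered 3 (48.6 in SCA1, 46.5 in WT). Without subtraction, *Gad1* and *Gad2* had the mice numbered 3 as the lowest pair in 0 of 6 labels, with ratios of 0.821 to 1.28 and 0.901 to 1.59. The pair belongs to both genotypes and to one batch that also holds mice 2, and a cause was not tested.

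**Figure D3:**
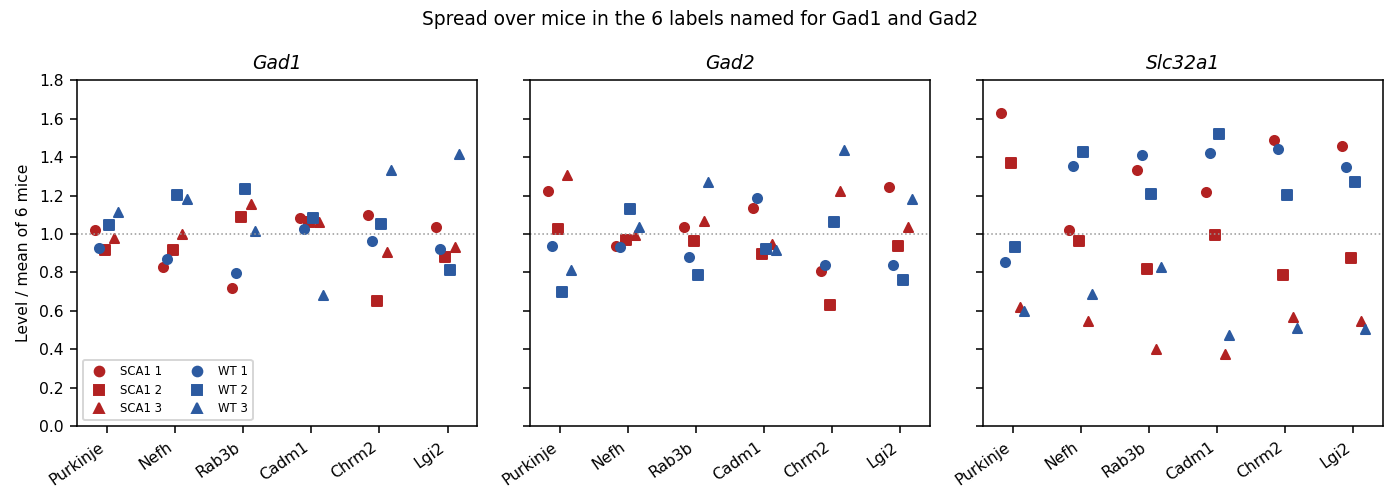
Level of each mouse divided by the mean of all 6 mice (y axis) for *Gad1*, *Gad2* and *Slc32a1* in the 6 Gad labels. Symbols mark mouse 1, 2 and 3 (circle, square, triangle), red is SCA1 and blue WT. For *Slc32a1* the triangles of both genotypes lie lowest in 5 of 6 labels, in levels without subtraction of the granule level.

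SCA1 was then compared with WT in each label on UMIs summed per mouse. The model held genotype and batch, edgeR's quasi-likelihood test gave the p-values, and genes were called at 0.05 after Benjamini-Hochberg adjustment over all genes of the label. In PCs 4 of the 5 members passed the filter on low counts, *Slc6a11* being too low, and 0 of these 4 were called. The background was as low, since 0 of 9821 genes were called in PCs (0%), 653 of them having an unadjusted p under 0.05. Other tools called 66 genes there (DESeq2) and 8 (edgeR with RLE factors), none of them a member.

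*Gad2* in PCs was 146, 122 and 156 UMIs per 1000000 for SCA1 (mice 1, 2 and 3) against 112, 83.2 and 96.9 for WT. All SCA1 mice lay above all WT mice, as they did for 12% of the genes tested in PCs, and groups did not overlap in either direction for 14.6%. The log2 fold change was 0.36 (SE 0.21, 95% interval -0.11 to 0.83), with an adjusted p of 0.907 by edgeR's quasi-likelihood test. Without SCA1 mouse 3 it was 0.20 (adjusted p = 1.00). Within batches the log2 ratio of levels was 0.38 and 0.63, and after subtraction of the granule level the SCA1 mice (98.4, 99.2 and 144) stayed above the WT mice (56.3, 65.9 and 82.7). The share of all genes for which this held after subtraction was not computed.

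*Slc32a1* in PCs was 150, 126 and 56.7 for SCA1 against 78.4, 85.6 and 54.8 for WT. The first and second SCA1 mice stood above all WT mice, whereas the SCA1 mouse numbered 3 was level with the WT mouse of that number. The log2 fold change was 0.39 (SE 0.29, 95% interval -0.26 to 1.04, adjusted p of 0.978 by edgeR's quasi-likelihood test), and the batches gave log2 ratios of 0.93 and 0.38. The value rested on single mice: it was 0.68 (adjusted p = 0.686) without SCA1 mouse 3 and 0.60 without WT mouse 2, and 0.16 to 0.31 without one of the other mice (SCA1 mouse 2 and WT mouse 3 giving these ends). Taken over 292 single PC nuclei by limma-trend, as if nuclei of a mouse were independent, *Slc32a1* was called at 0.58 on the log2 scale (SE 0.13, adjusted p = 0.00348), *Gad2* was not (0.38, adjusted p = 0.166), and 407 of 21377 genes (1.9%) were called. The paper reports *Slc32a1* as increased in SCA1 PCs, from limma-trend on single nuclei with genotype and batch. Its PCs were only those nuclei whose cluster and annotation matched, unlike the 292 here. On sums per mouse this increase was not called.

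*Gad1* and *Abat* overlapped between the genotypes in PCs. *Gad1* was 198, 179 and 191 in SCA1 and 180, 204 and 217 in WT mice, which overlap, and the log2 fold change was -0.26 (SE 0.20, 95% interval -0.69 to 0.18, adjusted p of 0.978 by edgeR's quasi-likelihood test), with log2 ratios of 0.14 and -0.19 within batches. Ratios within batches, here and elsewhere, are of levels scaled by total UMIs, whereas the fits use TMM factors. *Abat* was 141, 102 and 114 in SCA1 and 122, 89.2 and 99.6 in WT mice, with a log2 fold change of 0.02 (SE 0.20, 95% interval -0.42 to 0.45). *Slc6a11* was 8.30, 2.78 and 4.58 in SCA1 and 4.32, 0 and 0 in WT mice, at or near single UMIs.

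The level of a gene in PCs depends on how libraries are scaled. With total UMIs as the only scaling, the median log2 fold change of all genes in PCs was 0.20, and *Gad2* was at 0.54 (adjusted p = 0.447, edgeR's quasi-likelihood test), *Slc32a1* at 0.58, *Abat* at 0.20 and *Gad1* at -0.07. The 5 PC markers (*Pcp2*, *Calb1*, *Car8*, *Itpr1* and *Ppp1r17*) summed to 11060 to 14310 UMIs per 1000000 in SCA1 and 15048 to 18638 in WT mice. The groups did not overlap, and 2.57% of the single genes tested in PCs had all SCA1 mice below. The paper reports *Calb1* in whole cerebellum and *Itpr1* in PCs as lowered in SCA1 mice. The sum thus holds genes reported to change with genotype. Granule markers (26.3 to 160 in SCA1, 33.8 to 266 in WT) and markers of molecular layer interneurons (135 to 269 and 142 to 377) overlapped. All 4 granule markers were above 0 in every mouse, and of the 6 interneuron markers *Pvalb*, which PCs also express, stood at 206 on average while *Sorcs3*, *Nxph1*, *Tfap2b* and *Lypd6* were at 0 in at least 1 mouse. Their part in these values was not tested.

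**Figure D4:**
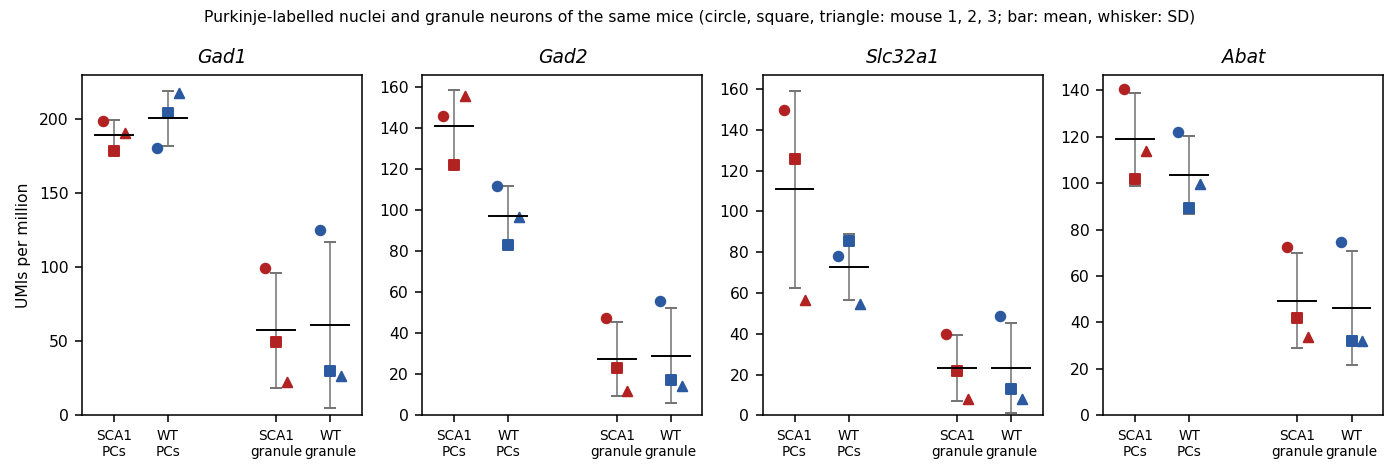
Levels of *Gad1*, *Gad2*, *Slc32a1* and *Abat* (y axis, UMIs per 1000000) per mouse in PCs and granule neurons. Points are mice (red SCA1, blue WT), bars are means of 3 mice and whiskers SD. In PCs, *Gad2* is at 122 to 156 in SCA1 and 83.2 to 112 in WT mice, and the granule values of *Gad1* reach 99.4 and 125 in the first mouse of each genotype.

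In the interneurons, the log2 fold change of *Slc32a1* was -0.43 (SE 0.26) in Nefh, -0.47 (SE 0.28) in Rab3b, -0.42 (SE 0.38) in Cadm1, -0.13 (SE 0.31) in Lgi2 and -0.06 (SE 0.29) in Chrm2, none of which passed the test. Without WT mouse 2 the values were 0.09 in Cadm1, 0.23 in Lgi2 and 0.18 in Chrm2. In Rab3b the SCA1 mice had 182, 112 and 55.2 UMIs per 1000000 and the WT mice 193, 165 and 114, so the groups overlapped. In Nefh, Rab3b and Cadm1, where mice of the same number deviated together over all genes, each SCA1 mouse was below the WT mouse of its number. Lgi2, where such mice deviated together as well, did not share this. There the SCA1 mice had 154, 92.9 and 57.7 and the WT mice 143, 135 and 53.4. The labels give no such pairs, and the share of all genes with each SCA1 mouse below the WT mouse of its number was not computed. With the number as a block the log2 fold changes in Nefh, Rab3b and Cadm1 were -0.43 (SE 0.12), -0.45 (SE 0.20) and -0.38 (SE 0.19), and none was called (adjusted p of 1.00, 0.999 and 0.988 by edgeR's quasi-likelihood test). *Gad1* was 267, 296 and 323 in SCA1 and 281, 389 and 382 in WT mice in the Nefh label (log2 fold change -0.22, SE 0.19, and -0.21, SE 0.10, with the number as a block), each SCA1 mouse again below the WT mouse of its number, and *Gad2* 183, 189 and 195 and 182, 221 and 203 (-0.08, SE 0.17). In Chrm2, *Gad1* was at -0.29 (SE 0.26) and *Gad2* at -0.28 (SE 0.28). Of the members tested in the 5 interneuron labels, all 5 in Nefh and all but *Slc6a11* in the others, 0 were called, and 0% of all genes were called by the same edgeR test (7307 to 11717 genes tested).

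In glia, *Slc6a11* in VA had a log2 fold change of -0.02 (SE 0.25, 95% interval -0.56 to 0.53) and *Abat* of -0.03 (SE 0.27, 95% interval -0.62 to 0.56). *Abat* in VA was 237, 180 and 299 in SCA1 and 242, 239 and 242 in WT mice, with the SCA1 mice on both sides of the WT mice. In VA, too, 0 members and 0% of 10548 genes were called.

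In BG, *Slc6a11* gave the lowest unadjusted p of all tests of members. It was 106, 54.1 and 38.5 UMIs per 1000000 in SCA1 against 83.1, 22.7 and 21.3 in WT mice, so that the groups overlapped through WT mouse 1. The log2 fold change was 0.69 (SE 0.25), with an adjusted p of 1.00 by edgeR's quasi-likelihood test over 11093 genes (0% called), and the within-batch log2 ratios were 0.35 and 1.07. Against granule neurons, in which it was 0.43 (SE 0.30), the difference of the effects was 0.49 on the log2 scale (SE 0.32, adjusted p of 1.00 in the edgeR interaction fit), a joint fit with its own filter and scaling, so that it is not the difference of the separate values.

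The BG label held some nuclei that clustered with other cells. The study assigned a cell type only where cluster and annotation gave the same one, so the nuclei described next would not count as BG by its rule, although they are part of the BG values above. Of 1243 BG nuclei, 117 (9.41%) lay in clusters whose most frequent label was another one, 98 of them in VA clusters, and their *Slc6a11* level was 514 ± 472 over mice, with *Aqp4* at 640 ± 279 and *Gdf10* at 26.6 ± 30.7. They numbered 38, 26 and 3 in SCA1 and 44, 3 and 3 in WT mice. Levels of *Slc6a11* ran from 0 to 1329, and both ends came from mice with only 3 such nuclei, whereas the mice with 26 to 44 of them stood at 743, 355 and 471. Over the 1126 nuclei whose label and cluster agreed, *Slc6a11* was 36.5, 18.0 and 20.5 in SCA1 and 28.3, 23.0 and 17.01 in WT mice, a mean of 23.9 ± 7.37, and its log2 fold change was 0.12 (SE 0.28). The groups overlapped, and the order of VA above BG became wider. *Abat* in BG was 118 in these nuclei and 122 in all BG nuclei. The levels by mouse of the nuclei that did not agree were examined after the data were seen.

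*Abat* in the Nrgn label was 87.2, 79.5 and 86.2 in SCA1 and 78.1, 73.0 and 79.5 in WT mice. The lowest SCA1 mouse lay above the highest WT mouse by less than 0.1 UMIs per 1000000, as 3.17% of the 12131 genes tested there had all SCA1 mice above, and the log2 fold change was 0.11 (SE 0.19, 95% interval -0.32 to 0.54). After subtraction of the granule level of each mouse, *Abat* in Nrgn was 14.7, 37.7 and 52.6 in SCA1 and 3.58, 41.1 and 47.5 in WT mice, which overlap.

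Over all labels, 53 of the 65 pairs of a member and a label could be tested, and 0 were called (lowest adjusted p = 0.907, edgeR's quasi-likelihood test). Unadjusted p was under 0.05 in 1 of them, *Slc6a11* in BG, and 22 of the 53 fold changes were positive. The values ran from -0.67 (*Slc6a11* in OLs, SE 0.61, but 0.17 without WT mouse 3) to 0.69, and SE from 0.14 to 0.61, so that changes of small size could not be seen at this number of mice and depth. *Abat* could be tested in 13 labels and ranged from -0.34 to 0.17. Groups did not overlap in 2 of 53 pairs, *Gad2* in PCs and *Abat* in Nrgn, against 5.55% of all genes over the labels (2.84 to 14.6% by label). With the granule level of each mouse subtracted, 3 of 60 pairs outside granule neurons did not overlap. The share over all genes was not computed for subtracted levels, so this count has no background. They were *Gad2* in PCs, *Abat* in OLs (-2.28, -2.85 and -2.51 in SCA1, 2.46, 4.37 and 3.19 in WT mice) and *Slc32a1* in the Dcn label (-11.3, -11.3 and -6.32 in SCA1, 19.0, 0.34 and 0.14 in WT mice), and in the latter pairs the levels lay within 20 UMIs per 1000000 of the granule level. In the same labels, 1 gene was called in granule neurons (0.00566% of 17656) and 1 in OLs (0.00917% of 10900), neither of them a member, and 0 in the other 11. DESeq2 called 0 members in every label as well. In a test of whether the SCA1 effect differed from that in granule neurons, 0 of 60 member values were called and 1 had an unadjusted p under 0.05. Of the 60, 12 had been too low for the fit of their own label and passed the filter through granule neurons. The value with an unadjusted p under 0.05 was 1 of these, *Slc6a11* in PCs, which held 46 UMIs there in all and 0 in WT mice 2 and 3, so no size is given. Over all genes and labels, 0.00364% of these values were called. For *Gad2* and *Slc32a1* in PCs this difference was 0.41 (SE 0.58) and 0.25 (SE 0.53).

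**Figure D5:**
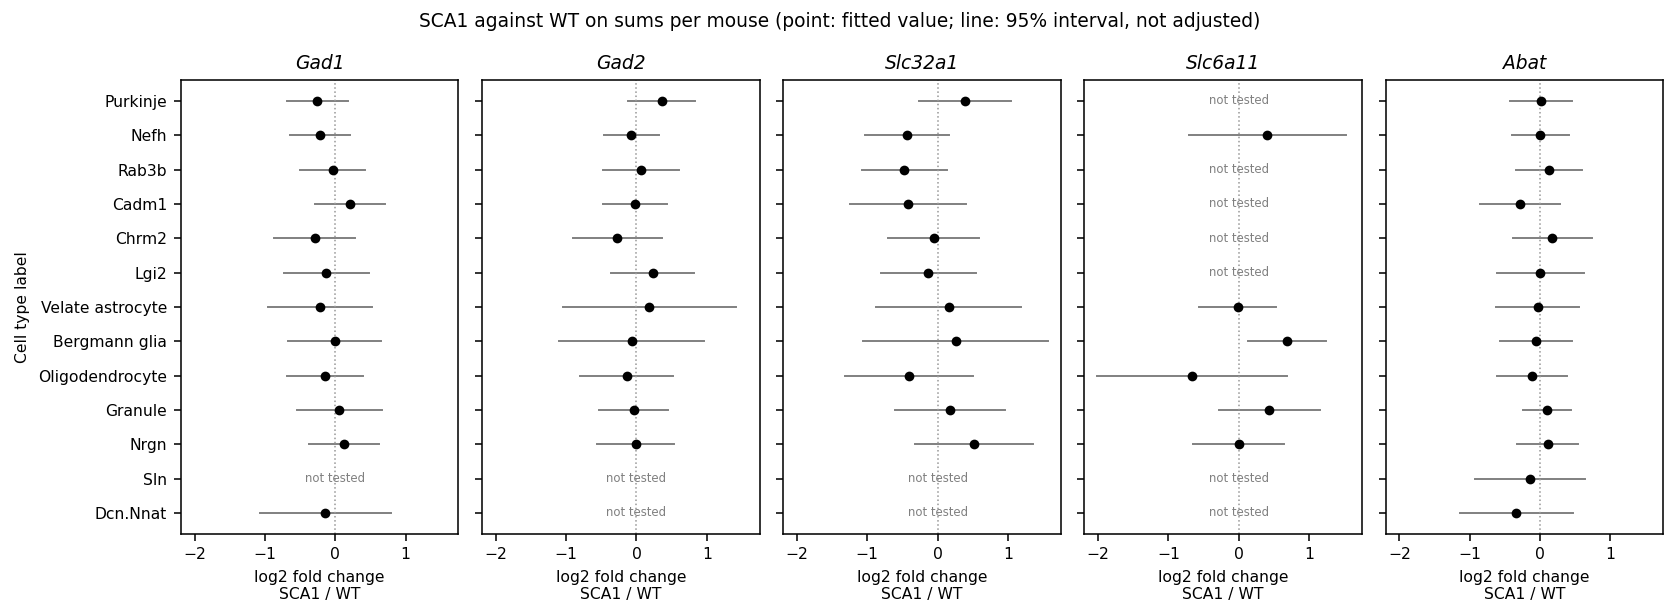
Log2 fold change of SCA1 against WT (x axis) for each gene in each of 13 labels, from edgeR on sums per mouse. Points are fitted values and lines are 95% intervals that are not adjusted for the number of tests, and pairs below the count filter are marked as not tested. All intervals but that of *Slc6a11* in BG include 0.

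The rest of the GABA pathway was counted in 4 lists with 38 genes. None of 271 tests was called by edgeR's quasi-likelihood test. Over all genes, the unadjusted p was under 0.05 in 1.87% of tests in the 13 labels and in 6.65% in PCs. Among the 7 genes of GABA and glutamine metabolism, 2 of 71 tests had an unadjusted p under 0.05, and the list's median log2 fold change was -0.19 to 0.15 by label and 0.12 in PCs, beside 0.02 over all genes in PCs. Most of these enzymes were highest in VA or BG: *Glul*, glutamine synthetase, stood at 433 in VA, *Glud1*, glutamate dehydrogenase, at 345 in VA, and *Aldh5a1*, which oxidises the product of *Abat*, at 32.9 in BG.

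The 21 further genes whose symbol starts with *Slc6a*, transporters except for the opposite-strand gene *Slc6a19os*, which was not tested in any label, had 6 of 93 tests with an unadjusted p under 0.05 (medians of -0.32 to 0.05, and -0.31 in PCs), and the 5 amino acid suppliers of the *Slc38a* family 1 of 44 (medians of -0.36 to 0.12, and -0.16 in PCs). *Slc38a1*, which takes up glutamine, was highest in BG at 818, *Slc38a3* in VA at 183, *Slc6a6*, the taurine transporter, in PCs at 234, and *Slc6a9*, a glycine transporter, in VA at 133. Receptors and postsynaptic genes of inhibition (5 genes) had 2 of 63 tests under 0.05, with medians of -0.59 in PCs to 0.09. Both were in PCs. *Gabbr2*, a subunit of the GABA-B receptor, was 572, 609 and 846 UMIs per 1000000 in SCA1 and 876, 1008 and 1329 in WT mice, all SCA1 mice lying below all WT mice, as 2.57% of the genes tested in PCs did. The log2 fold change of -0.84 (SE 0.25) had an adjusted p of 0.379 by edgeR's quasi-likelihood test, and that of its partner subunit *Gabbr1* was -0.60 (SE 0.20, adjusted p = 0.506).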

How the data were processed

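Nuclei of whole cerebella were sequenced by droplet single-nucleus RNA-seq. The authors aligned reads with Cell Ranger to mm10 plus human *ATXN1*, introns included, removed debris with DIEM at a minimum of 1000 UMIs per nucleus (3000 in the first sequencing run) and annotated nuclei with SingleR. Their cell types also required the Seurat cluster to match, whereas the SingleR label alone was used here, with the matching nuclei as an alternative. The authors deposited raw UMI counts and a table of clusters and labels. The submitters' notes list Cell Ranger 4.0.0, 5.0.1 and 6.0.1, R 4.1.0 and Seurat 4.0.4. Batches were assigned here by the libraries' numbers, which GEO's labels give in separate ranges. No doublet caller was run, and no doublet removal is given in the methods.

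Here, counts were summed per mouse and label (at least 10 nuclei in every mouse). Levels are UMIs per 1000000 and shares of nuclei were computed after thinning to 1000 UMIs. edgeR 4.0.16 in R 4.3.3 (filterByExpr with a minimum count of 10 and total of 15, TMM factors, quasi-likelihood test, batch and genotype) gave fold changes with Benjamini-Hochberg adjusted p, and an interaction fit with mouse and label as terms compared labels with granule neurons. DESeq2 1.42.0 and limma 3.58.1 served as alternatives, and the edgeR and DESeq2 fits on sums were tested on simulated data. The simulated counts had the same dispersion for all genes and no batch effect. Their changes were larger than any in the main fits of a member per label. The simulation therefore does not show how the fits fare at the sizes and spread seen here. All members were described in every tested label. The members and lists were chosen with earlier results of these data known. Deviations of same-numbered mice from their group means correlated by 0.472 to 0.868 for number 1, 0.0431 to 0.298 for number 2 and 0.429 to 0.787 for number 3. Every pair was above 0.1 in 6 of 13 labels (Nefh, Rab3b, Cadm1, Lgi2, VA and granule neurons), where the numbers were taken to pair the mice, a pairing that comes from the data and not from the labels. In VA and granule neurons, mice of unlike number reached 0.175 and 0.390, above number 2 (0.139 and 0.261). In Nefh, Rab3b, Cadm1 and Lgi2 every pair was above all mice of unlike number. Number 1 is also the first batch. Fits with the number as a block thus rest on a pairing that is not established.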

Additional observations from a re-analysis of the deposited data

How the results depend on the processing

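With 3 mice per genotype, 0 members were called in any label under each of the 15 alternative settings on sums per mouse (lowest adjusted p = 0.368 by edgeR, and 0.999 by DESeq2), which included other scaling, no filter, no batch term, nuclei of at least 3000 UMIs, the mice of batch 2 alone (chosen after seeing the data) and leaving out each mouse. Restricting nuclei to those whose label and cluster agreed was possible in BG, VA, PCs, Cadm1, Nefh, granule neurons and OLs. Over single PC nuclei, taken as if nuclei of a mouse were independent, limma-trend called 1 member, *Slc32a1*, and 407 of 21377 genes (1.9%). Such nuclei are not replicates of the genotype. Of 769 fold changes under the alternatives on sums per mouse, none of them called, 115 had the other sign. Leaving out each mouse in turn, *Gad2* in PCs ran from 0.20 (without SCA1 mouse 3) to 0.46 on the log2 scale and *Slc32a1* from 0.16 to 0.68.

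With a replicate block in place of batch, 0 members were called, *Gad2* in PCs was at 0.35 (adjusted p = 0.368, edgeR) and *Slc32a1* at 0.38 (adjusted p = 0.494), while the count over all genes in PCs went from 0 to 172. PCs were not among the labels where the numbers were taken to pair the mice. In the labels where they were, the count over all genes went from 1 to 6 in granule neurons and from 0 to at most 3 elsewhere. In PCs the count was 223 without the filter on low counts, 66 by DESeq2, 8 with RLE factors and at most 6 without a mouse.

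The share of nuclei with a UMI follows depth. Without thinning and with thinning to 3000 UMIs it was 88.2% and 42.0% for *Gad1* in PCs, 28.3% and 15.9% for *Gad1* in granule neurons, 78.6% and 29.7% for *Gad2* in PCs, 69.6% and 20.9% for *Slc32a1* in PCs, and 58.0% and 42.2% for *Slc6a11* in VA. *Abat* in the Nrgn label was 90.5 as a mean over nuclei against 80.6 from the sums.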

Other observations

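The 11 labels with too few nuclei for a comparison were pooled over mice. *Abat* stood at 344 UMIs per 1000000 in 12 nuclei of a polydendrocyte label (75 UMIs) and at 183 in 83 choroid plexus nuclei (173 UMIs), and *Gad1* at 100.3 in 125 microglia nuclei (62 UMIs). The *Gad1* value lies within the range of granule neurons over mice (22.8 to 125), the background used here, so it does not show expression in microglia.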
